A study of Rattus norvegicus with 4 samples.

Results

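Retinoid metabolism genes were followed in PC12 cells, a line derived from a rat pheochromocytoma, a catecholamine-secreting tumour of the adrenal medulla. The set held 9 genes, named as Adh7, Dhrs3, Rdh10, Aldh1a1, Aldh1a2, Crabp1, Crabp2, Rara and Rarb. Of these, 7 were among the 36934 genes or unnamed transcript identifiers that the array's probes stand for here. Adh7 and Dhrs3 had been picked for their difference in these same arrays, so all values of the 9 genes are given as descriptions, with no test. A probe was assigned to a gene where its transcript identifier is listed for that gene in RefSeq. By that match 7 of the 9 genes had 1 probe each, printed once on the array, and Crabp1 and Rarb had none and were not analysed here.

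The groups were 1 PC12 line carrying an empty vector and 1 PC12 line carrying a plasmid that codes for MAX, the obligate dimer partner of the MYC transcription factors. PC12 cells are known as a line without a functional MAX protein of its own. Both lines came from nucleofection followed by drug selection (E418 as the labels spell it), and both grew in the same medium with fetal calf and horse serum. Each group had 2 arrays, from cells at passages 8 and 13 per the design text, and the labels do not say which replicate came from which passage. Whether each line was a clone or a pool, and which promoter drove the plasmid, is not given in the sources used here. Errors below therefore cover passages of a line only, and independent transfections were not compared.

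Retinoid metabolism converts dietary retinol into retinoic acid, a ligand that acts on genes. Retinol and retinal are interconverted by alcohol dehydrogenases and short-chain dehydrogenases, and retinal is then oxidised irreversibly to retinoic acid by the ALDH1A enzymes. Cellular binding proteins carry these lipids, CYP26 enzymes break retinoic acid down, and RAR and RXR receptors bind it on DNA. Retinoic acid is known to guide differentiation of neural crest derivatives, the lineage to which chromaffin cells belong.

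On 41012 probes per array, the share rated well above background ran from 64.4% to 71.5%, and none were saturated. Arrays of a line correlated at r = 0.9905 (empty vector) and r = 0.9887 (MAX vector) over all probes (Pearson), and pairs across the lines at 0.9839 to 0.9882. MAX vector replicate 1 lay alone on a second slide, and the other 3 arrays shared a slide. The probe for Max itself was at -8.36 and -8.07 in the empty vector line, against -7.61 and -7.94 in the MAX vector line. It was not well above background on any array and so did not check the labels. All levels here and below are log2 signals relative to the array's own 75th percentile, so that 0 is the 75th percentile of that array. Levels of different probes are not set against each other, except in the linear sums of markers below, where a bright probe weighs most. In bulk RNA, fewer cells of a type and less RNA per cell cannot be told apart.

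Adh7 and Dhrs3, enzymes at the step between retinol and retinal, were lower in the MAX vector line, Rdh10 and Aldh1a1 were higher by smaller amounts, and Crabp2 and Rara lay at about the same level in both lines. Of the 6 members that passed the filter on dim probes, 2 had an adjusted p under 0.05 in limma, both lower, where 0.84% of the 25356 genes tested were called, 0.576% higher and 0.264% lower. Since the members were chosen with this contrast known, nothing is read from that count, and it fell to 0 when any 1 of the 4 arrays was left out. Both MAX vector arrays were below both empty vector arrays for 2 of the 6 members and above for 2, where 26% of all genes tested were below and 24.2% above. The median log2 fold change of the 6 was 0.09, beside -0.019 over all genes tested. The plot of members by array shows the 7 probes.

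**Figure D1:**
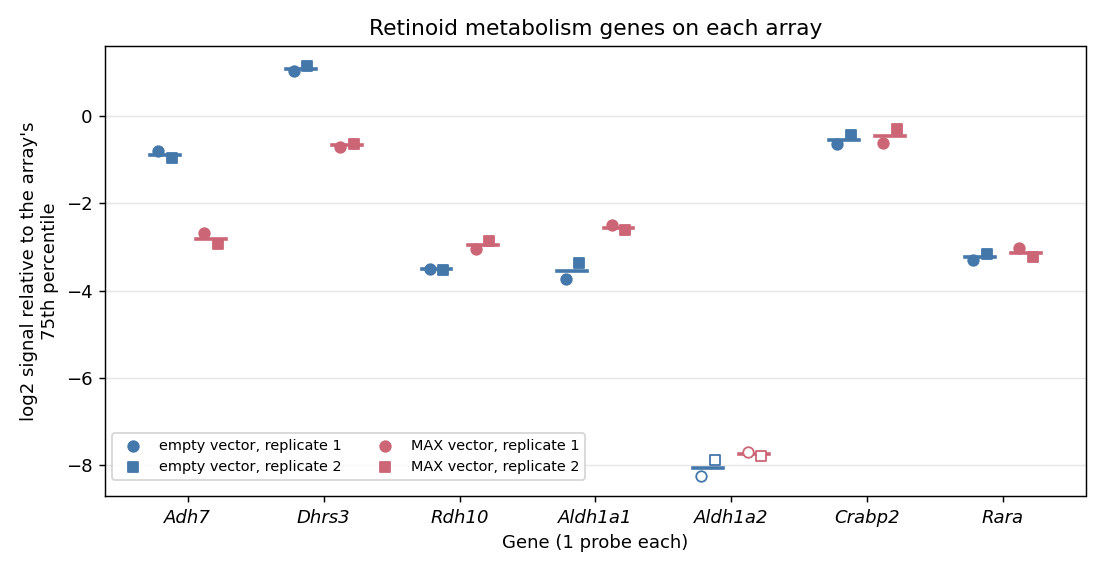
Log2 signal relative to each array's 75th percentile (vertical axis) for the 7 retinoid genes with a probe. Points are single arrays, bars are means of the 2 arrays of a group, and open symbols mark spots not well above background; Adh7 and Dhrs3 separate by far more than the arrays of a group do, Rdh10 and Aldh1a1 by less and in the other direction, and Aldh1a2 lies near -8 on all 4 arrays.

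Adh7 encodes a class IV alcohol dehydrogenase that oxidises retinol to retinal. Its level was -0.81 and -0.97 in the empty vector line, against -2.69 and -2.94 in the MAX vector line. The groups did not overlap, and the arrays of a group differed by 0.16 and 0.26. The MAX vector line was lower by a log2 fold change of -1.92 ± 0.14 (SE, n = 2 arrays per group), which is 3.79-fold. The scanner signals behind these values were 399.66 and 311.84 against 91.715 and 86.618, all rated well above background. Among the 6316 tested genes with a symbol, Adh7 ranked 18 from the lowest fold change.

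Dhrs3 encodes a short-chain dehydrogenase that runs the reverse step, reducing retinal back to retinol, and is itself known as a gene that retinoic acid induces. Its level was 1.03 and 1.13 in the empty vector line, against -0.71 and -0.64 in the MAX vector line. The groups did not overlap, and the arrays of a group differed by 0.10 and 0.06. The log2 fold change was -1.75 ± 0.09, or 3.37-fold lower with the MAX vector, at rank 25 from the lowest among genes with a symbol. Signals ran from 1337.2 to 1431.1 with the empty vector and from 361.88 to 427.45 with the MAX vector. Adh7 and Dhrs3, whose enzymes act in opposite directions on the same pair of molecules, were both lower, by similar amounts.

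Rdh10, the short-chain dehydrogenase that oxidises retinol to retinal in the embryo, was at -3.51 and -3.52 in the empty vector line, against -3.05 and -2.86 in the MAX vector line. The groups did not overlap, with a log2 fold change of 0.56 ± 0.11, or 1.47-fold higher with the MAX vector. Rdh10 and Adh7 act in the same direction on retinol, and their values went opposite ways. Aldh1a1, which oxidises retinal to retinoic acid, was at -3.73 and -3.37 in the empty vector line, against -2.51 and -2.62 in the MAX vector line. Again the groups did not overlap, and the log2 fold change was 0.98 ± 0.16, or 1.98-fold higher. Aldh1a2, the enzyme that makes retinoic acid in much of the embryo, was not well above background on any array, with signals between 2.3175 and 3.0335, so no fold is given.

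Crabp2, a binding protein that carries retinoic acid to its receptors, was at -0.65 and -0.44 in the empty vector line, against -0.63 and -0.31 in the MAX vector line. The groups overlapped, and the log2 fold change was 0.08 ± 0.16. Rara, the retinoic acid receptor alpha, was at -3.31 and -3.16 in the empty vector line, against -3.03 and -3.24 in the MAX vector line. These groups overlapped too, with a log2 fold change of 0.10 ± 0.12. Neither value was larger than the spread between the arrays of a line, and the sign of both turned when single arrays were left out, within -0.08 to 0.24 for Crabp2 and -0.01 to 0.20 for Rara. The scanner's own error estimate for the 6 detected members lay between 10% and 10.8% of the signal.

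The place of these genes among all others is shown in the plot of fold change against mean level. Adh7 and Dhrs3 lay at the 99.2 and 99.1 percentile of absolute log2 fold change. Aldh1a1 lay at the 96.4 percentile and Rdh10 at the 89.4 percentile, while Rara and Crabp2 were inside the bulk at the 33.7 and 27 percentile.

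**Figure D2:**
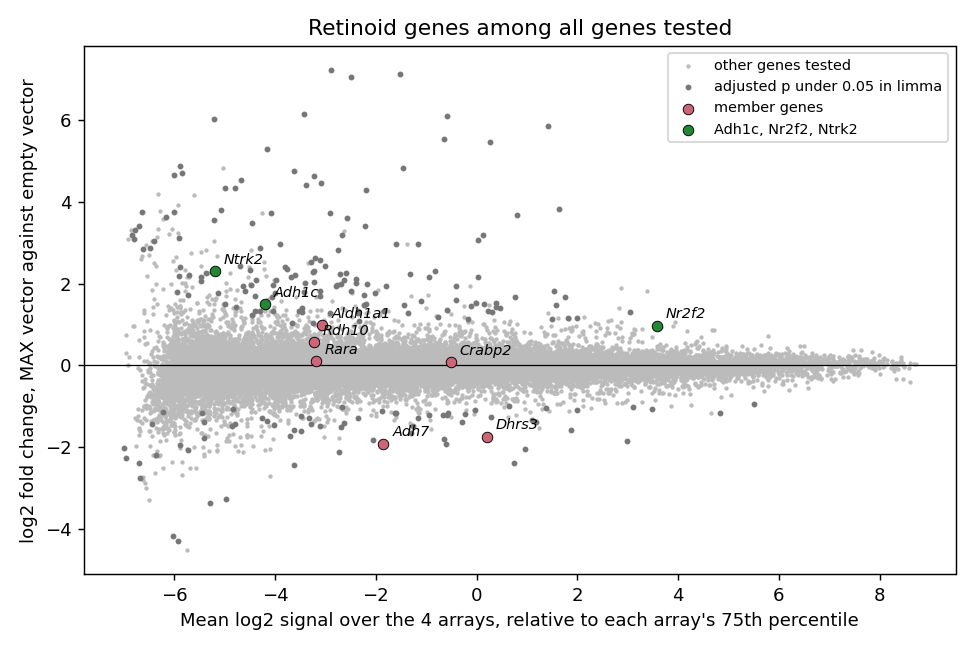
Log2 fold change, MAX vector against empty vector (vertical axis), against the mean log2 level over the 4 arrays (horizontal axis) for 25356 genes. Dark points are the 213 genes with an adjusted p under 0.05 in limma; of the retinoid genes, Adh7 and Dhrs3 are the members farthest below 0, and Nr2f2 stands apart from the narrow band of bright genes.

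The start regions of the members were read to show what lies there. RefSeq promoter sequences of the rat build GRCr8, from 250 bases before to 50 bases after the annotated start, were at hand for 8 of the 9 members, Rdh10 being the one without. Adh7 (chr2:229421875-229422174, plus strand), Dhrs3 (chr5:162031603-162031902, plus strand) and Aldh1a1 (chr1:227537370-227537669, plus strand) are printed because they carry the differences above. Cyp26a1 (chr1:244883572-244883871, plus strand) is printed beside them as a gene whose promoter is known for retinoic acid response elements. Each reads 5′ to 3′, and capitals mark matches to the motifs listed after the sequences.
Adh7: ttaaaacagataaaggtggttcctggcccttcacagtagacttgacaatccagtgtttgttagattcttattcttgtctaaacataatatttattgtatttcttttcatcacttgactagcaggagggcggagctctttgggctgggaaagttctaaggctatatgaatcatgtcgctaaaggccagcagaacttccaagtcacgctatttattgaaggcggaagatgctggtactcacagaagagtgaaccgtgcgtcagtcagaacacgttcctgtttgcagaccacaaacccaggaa
Dhrs3: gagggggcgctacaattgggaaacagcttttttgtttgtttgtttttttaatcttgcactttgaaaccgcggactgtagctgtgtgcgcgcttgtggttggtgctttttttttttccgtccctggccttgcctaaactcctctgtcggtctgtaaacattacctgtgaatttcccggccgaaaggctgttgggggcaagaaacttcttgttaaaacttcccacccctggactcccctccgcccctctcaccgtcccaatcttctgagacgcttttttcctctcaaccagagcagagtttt
Aldh1a1: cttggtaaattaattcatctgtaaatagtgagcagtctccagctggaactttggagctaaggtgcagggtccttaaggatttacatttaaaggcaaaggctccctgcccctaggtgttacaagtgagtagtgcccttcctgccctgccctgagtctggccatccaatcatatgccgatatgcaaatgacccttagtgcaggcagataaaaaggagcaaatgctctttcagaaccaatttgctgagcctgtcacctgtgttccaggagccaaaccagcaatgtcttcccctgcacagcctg
Cyp26a1: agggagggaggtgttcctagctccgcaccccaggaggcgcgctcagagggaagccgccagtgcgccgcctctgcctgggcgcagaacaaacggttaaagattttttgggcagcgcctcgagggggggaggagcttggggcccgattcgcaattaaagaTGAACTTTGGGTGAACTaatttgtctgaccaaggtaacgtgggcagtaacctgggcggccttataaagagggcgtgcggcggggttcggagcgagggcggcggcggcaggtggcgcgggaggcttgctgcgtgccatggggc

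The motifs searched on both strands were CACGTG and CACGCG, E-box forms known to bind MYC and MAX dimers, and the receptor hexamers AGGTCA and AGTTCA. Direct repeats were searched as well, built from either hexamer or from the form GGGTCA or the variant form GGTTCA, with 1, 2 or 5 bases between the copies, and a repeat can overlap a single hexamer. Of all 33469 rat promoters of this length, 6.42% held CACGTG and 8.5% held CACGCG. The hexamer AGGTCA was in 16.2% of them and AGTTCA in 14.5%. Repeats with a spacing of 1, 2 and 5 were in 0.233%, 0.17% and 0.382%. None of these motifs were in the windows of Adh7, Dhrs3, Aldh1a1, Aldh1a2 or Rara. Crabp1 and Crabp2 each held 1 CACGCG. The Cyp26a1 window held AGTTCA at 2 places on the opposite strand, and these form a direct repeat with a spacing of 5, starting 92 bases before the gene's start. The Rarb window held such a repeat too, from base 25 after the start. A match is a description of letters and not a binding site, and binding was not measured in these arrays.

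The genes with the most similar pattern were taken by the distance between log2 levels centred on each gene's mean over the 4 arrays, among 5789 named genes above background on all arrays. For Adh7 these were Anxa3 (distance 0.228), Dhrs3 (0.339), Cspg4 (0.376), Arsi (0.383) and Dpp4 (0.397). Their log2 fold changes were -1.80, -1.75, -1.67, -1.58 and -1.73 in the same order. Dhrs3 itself was thus the next closest to Adh7 after Anxa3, an annexin. Adh7 and Dhrs3 had both been picked for their difference in these arrays, so their closeness rests on the values used to pick them. For Dhrs3 the closest were Sulf2 (0.25), Arxes1 (0.272), Tppp3 (0.278), Cspg4 (0.288) and Arsi (0.292). Cspg4, a chondroitin sulfate proteoglycan of the cell surface, and Arsi, an arylsulfatase, were on both lists. The distance is a description over 4 arrays, and no test was made of it.

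Neighbours of the members on the chromosome were compared with them. In the gene order of GRCr8, Adh7 lies in a cluster of alcohol dehydrogenase genes, next to Adh1c. Adh1c was at -5.31 and -4.58 in the empty vector line, against -3.55 and -3.38 in the MAX vector line. These groups did not overlap and lay the other way round from Adh7, with a log2 fold change of 1.49 ± 0.28 that did not pass the test (adjusted p = 0.139 in limma). Over 15 alternative settings Adh1c ranged from 0.52 to 1.85. It passed only with the array median in place of the 75th percentile (adjusted p = 0.0361 in limma). The lowest fold change came with normexp background correction. That setting adds an offset of 50 to every signal, which draws log2 differences of dim probes toward 0. Trmt10a, the second gene on the other side of Adh7, had -0.01 ± 0.12. Near Dhrs3, Tnfrsf1b had -0.23 ± 0.09 and Tnfrsf8 had 0.09 ± 0.31. Near Aldh1a1, Anxa1, an annexin, had -0.28 ± 0.09 (adjusted p = 0.279 in limma). Gda, guanine deaminase and the fourth gene on the other side of Aldh1a1, was at -5.45 and -5.54 in the empty vector line, against -7.84 and -7.96 in the MAX vector line. It was lower where Aldh1a1 was higher, and was called in limma (adjusted p = 0.0197). Gda was above background only in the empty vector arrays and passed the filter through them, so the difference is given as at least 1.27-fold. The call was lost without MAX vector replicate 1 (adjusted p = 0.0643 in limma), empty vector replicate 1 (0.261) or empty vector replicate 2 (0.245).

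The rest of the pathway was taken from 5 lists with 69 genes in all, of which 36 had a named probe and 23 passed the filter on dim probes. Of these 23, 1 rose and 0 fell in limma at an adjusted p under 0.05, where 0.576% of all genes tested rose and 0.264% fell. In the same fit 10 of the 23 had an unadjusted p under 0.05, where 16.1% of all genes tested did. These shares over all genes also stand beside the counts of each list below. Both MAX vector arrays were above both empty vector arrays for 10 of the 23 and below for 4, where 24.2% of all genes tested were above and 26% below, and the groups overlapped for 9. The median log2 fold change was 0.09, with 17 values above 0 and 6 below. The plot of fold changes by role sets most of these genes beside the members.

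**Figure D3:**
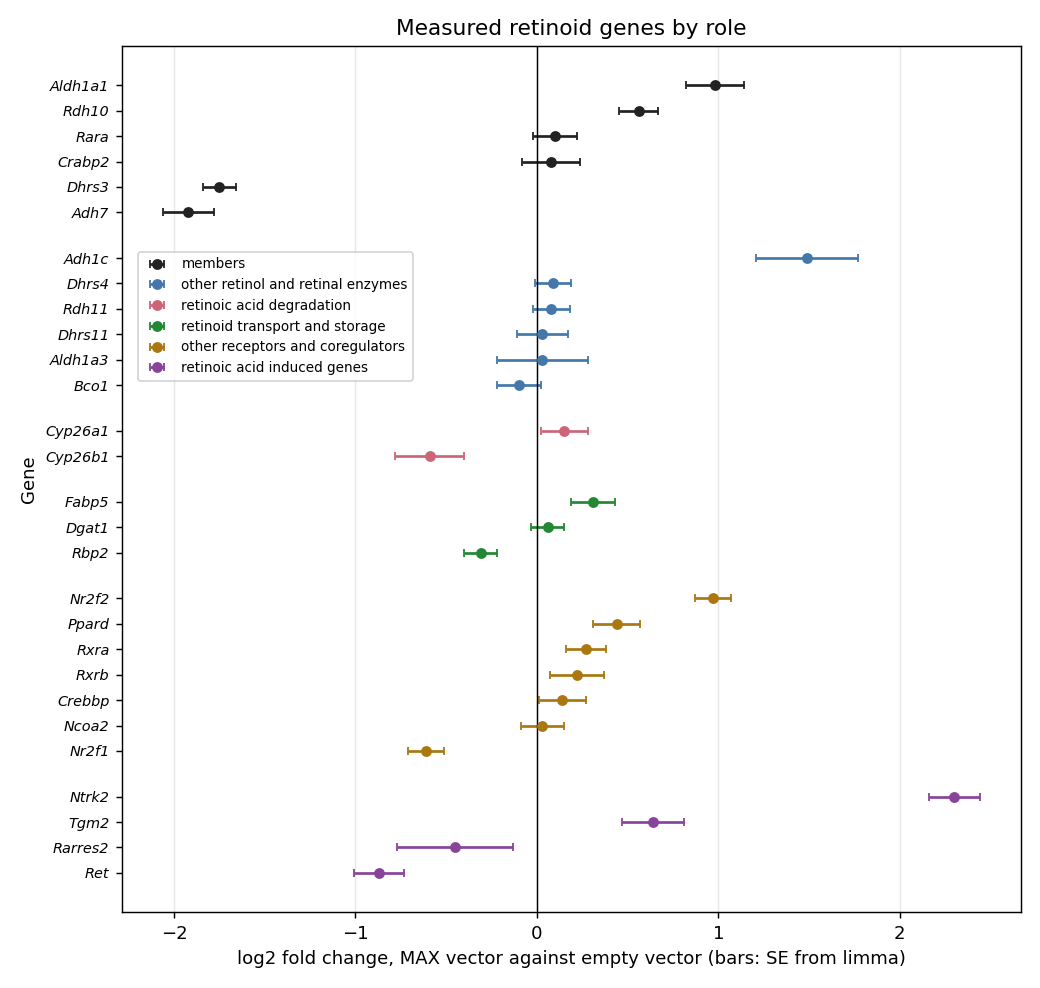
Log2 fold change, MAX vector against empty vector (horizontal axis), of the 6 tested members and other tested retinoid genes, grouped by role; bars are standard errors from limma. Adh7 and Dhrs3 are the lowest values, at -1.92 and -1.75, and Ntrk2 and Adh1c are the highest values drawn, at 2.30 and 1.49.

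Among the other enzymes of retinol and retinal, 11 of 21 genes had a probe, 6 were tested, and 0 passed the test in limma, with 1 at an unadjusted p under 0.05. Apart from Adh1c, all 5 lay within 0.10 of 0 on the log2 scale, such as Dhrs4, a reductase of retinal, at 0.09 ± 0.10, and Bco1, which cleaves beta-carotene to retinal, at -0.10 ± 0.12. Aldh1a3, the third retinal dehydrogenase of the ALDH1A group, had 0.03 ± 0.25. Dhrs9, Rdh7, Rdh16 and Adh6 were not well above background on any array, and Adh4 was above it on 1 array.

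For the enzymes that degrade retinoic acid, 2 genes were tested and 0 passed in limma, with 1 at an unadjusted p under 0.05. Cyp26b1 was at 4.43 and 4.14 in the empty vector line, against 3.89 and 3.50 in the MAX vector line. The groups did not overlap, with a log2 fold change of -0.59 ± 0.19 and an adjusted p of 0.274 in limma. Cyp26a1, whose promoter holds the repeat printed above, was at -6.17 and -5.96 in the empty vector line, against -6.02 and -5.82 in the MAX vector line. It was above background on 3 of 4 arrays, the groups overlapped, and the log2 fold change was 0.15 ± 0.13 (adjusted p = 0.627 in limma). It is named although it was not detected on all arrays, after its values were seen.

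Among transport and storage proteins, 4 of 13 genes were tested and 0 passed in limma, with 2 at an unadjusted p under 0.05. Rbp2, a retinol binding protein of the intestine, was at -4.84 and -4.89 in the empty vector line, against -5.13 and -5.21 in the MAX vector line. The groups did not overlap, with a log2 fold change of -0.31 ± 0.09 (adjusted p = 0.248 in limma). Fabp5, a fatty acid binding protein that also carries retinoic acid, had 0.31 ± 0.12 (adjusted p = 0.338 in limma). Lrat, Rpe65, Stra6 and Ttr were not well above background on any array.

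Among receptors and coregulators, 7 of 15 genes were tested and 0 passed in limma, with 3 at an unadjusted p under 0.05. Nr2f2, an orphan receptor that competes for retinoic acid receptor elements, was at 3.06 and 3.13 in the empty vector line, against 4.01 and 4.12 in the MAX vector line. The groups did not overlap, and the log2 fold change of 0.97 ± 0.10 had an adjusted p of 0.0545 in limma, which passed in 4 of 15 alternative settings (0.000439 to 0.424). Its relative Nr2f1 was at -0.53 and -0.45 in the empty vector line, against -1.17 and -1.03 in the MAX vector line. That difference of -0.61 ± 0.10 had an adjusted p of 0.121 in limma (0.0331 to 0.576 over 15 alternatives). A dimmer second Nr2f1 probe, above background on 2 of 4 arrays, showed a difference of 0.02. Ppard, a fatty acid receptor that RXR partners, had 0.44 ± 0.13 (adjusted p = 0.24 in limma), and Rxra had 0.27 ± 0.11.

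Among genes known to be induced by retinoic acid, 4 of 16 were tested, 1 rose and 0 fell in limma, with 3 at an unadjusted p under 0.05. Ntrk2, which encodes the BDNF receptor TrkB, was at -6.29 and -6.40 in the empty vector line, against -4.19 and -3.89 in the MAX vector line. It was above background on 1 of the 2 empty vector arrays and on both MAX vector arrays. The log2 fold change was 2.30 ± 0.14, with empty vector replicate 2 not well above background, and an adjusted p of 0.0283 in limma (0.00161 to 0.315 over 14 alternatives). The log2 fold change shrank to 0.54 with normexp background correction, whose offset of 50 draws log2 differences of dim probes toward 0. A second Ntrk2 probe stayed at background on all 4 arrays. The call for Ntrk2 was lost without empty vector replicate 1, empty vector replicate 2 or MAX vector replicate 1. Tgm2, a transglutaminase, was at -5.12 and -4.77 in the empty vector line, against -4.40 and -4.20 in the MAX vector line, a difference of 0.64 ± 0.17 (adjusted p = 0.216 in limma). Ret, the GDNF receptor kinase, was at -5.13 and -4.84 in the empty vector line, against -5.79 and -5.90 in the MAX vector line. It was above background only in the empty vector arrays and lower with the MAX vector, without passing the test (adjusted p = 0.113 in limma). No fold is given, and over 14 alternatives the log2 fold change ranged from -1.01 to -0.25. Ret passed the filter on dim probes only through the group where it is high, and it is 1 of the 3 genes at an unadjusted p under 0.05. Its 2 further probes were dimmer and were not lower with the MAX vector. The difference was 0.02 for the probe above background on 1 array, and 0.42 for the probe above it on 0. Rarres2, the chemokine-like adipokine chemerin, had -0.45 ± 0.32.

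Markers of cell types were read on the same arrays. Of 12 chromaffin markers, 10 were tested and 8 were above background on all arrays, and each of the 10 was above it on at least 1 array of each line. Their summed linear level, in multiples of each array's 75th percentile, was 20.6 and 21 in the empty vector line, against 12.2 and 12.1 in the MAX vector line. Ddc, which makes dopamine from DOPA, alone gave 16.3 and 16.4 of that sum, against 7.75 and 7.68, and the other 9 markers summed to 4.31 and 4.61, against 4.46 and 4.42. Of the 10, 2 had a log2 fold change above 0 and 8 below, with a median of -0.28. Both MAX vector arrays were above both empty vector arrays for 1 marker and below for 5. Over all genes tested, 24.2% were above and 26% below. Limma called 1 marker higher and 1 lower, where 0.576% of all genes tested were called higher and 0.264% lower. The lowest was Dbh, dopamine beta-hydroxylase, at -1.41 ± 0.89, and the highest was Th. Th, tyrosine hydroxylase of the catecholamine pathway, rose by 2.15 ± 0.11 on the log2 scale (adjusted p = 0.0203 in limma), and Ddc fell by 1.08 ± 0.08 (adjusted p = 0.0391). Without MAX vector replicate 2 the adjusted p of Ddc was 0.0654 in limma and that of Th 0.049. Without empty vector replicate 1 or 2 limma called 0 genes of any kind (1963 and 2456 at an unadjusted p under 0.05), and without MAX vector replicate 1 it called 8, all higher. The 5 fibroblast markers tested summed to 134 and 149 in the empty vector line, against 140 and 150 in the MAX vector line. Col3a1 gave most of that sum, at a log2 level of 6.98 and 7.12 against 7.07 and 7.16. Log2 fold changes ran from Lum at -1.19 to Dcn at 0.75. Both MAX vector arrays were below both empty vector arrays for 3 markers and above for 1, beside 26% and 24.2% of all genes. Limma called 0 of the 5 (3 had an unadjusted p under 0.05). Of 6 macrophage markers, 3 were tested, Itgam and Aif1 were not well above background on any array, and the sums were 0.642 and 0.731 against 0.661 and 1.17. The part of these markers in the retinoid values was not tested.

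The retinoid values were set against other ways of processing the arrays in the plot of alternatives. The slide as a block and leaving out MAX vector replicate 1, alone on its slide, are the same fit and are both counted among the 15. Over 15 alternatives Adh7 ranged from -2.05 to -1.43 and Dhrs3 from -1.80 to -1.55. Aldh1a1 ranged from 0.60 to 1.16 and Rdh10 from 0.29 to 0.65. These 4 members kept the sign of their difference in all 15. Settings that changed only the filter, probe averaging, variance model or replicate block, and the authors' value table, gave the same fold changes. With 1 probe per member those settings could not move them, so they say nothing about these values.

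**Figure D4:**
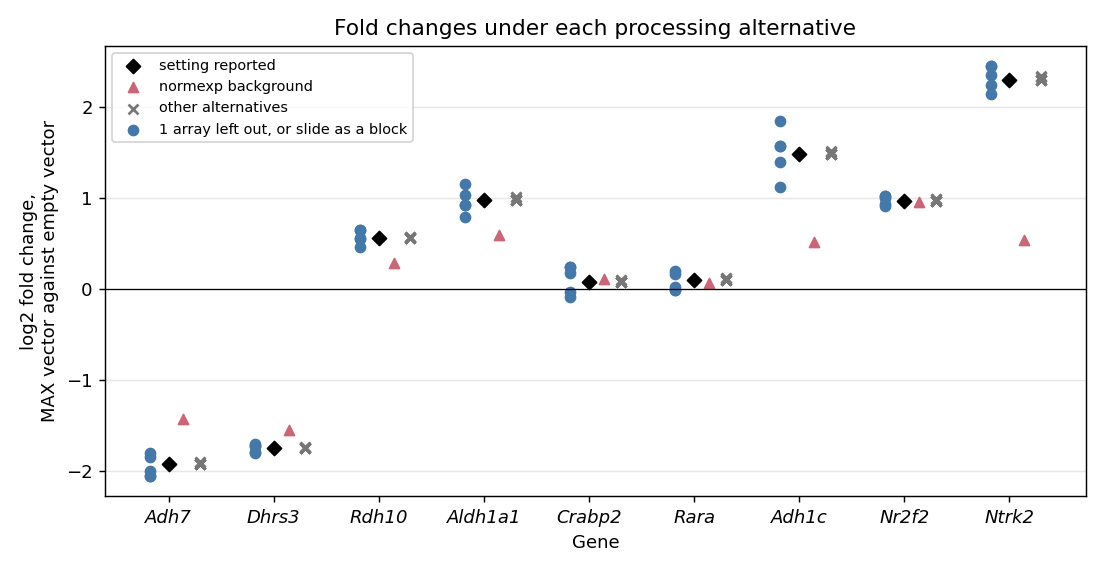
Log2 fold change, MAX vector against empty vector (vertical axis), of 6 members and of Adh1c, Nr2f2 and Ntrk2 under each processing alternative. Diamonds are the values reported and triangles normexp background correction with an offset of 50. Crosses are the other alternatives, and circles fits with 1 array left out or the slide as a block. Ntrk2 and Adh1c move most, to 0.54 and 0.52 with normexp, while Adh7 and Dhrs3 stay at or below -1.43.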

How the data were processed

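Total RNA of 4 PC12 samples, 2 per group, was hybridised to 1-colour Cy3 Agilent rat arrays. The deposited scanner files hold spot intensity written by Feature Extraction 10.7.3.1 with rn4 annotation, background-subtracted and detrended per the file headers (the submitters' processing notes give 10.7). The authors also deposited a log2 value table. Differences between its columns matched log2 intensity minus each array's 75th percentile (r = 1, SD of disagreement 4.3e-07). Its column medians were -0.033, -0.011, -0.005 and -0.006, and the baseline on which each probe was centred stays unknown.

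Here, control and outlier-flagged spots were left out, spots of a probe averaged, and log2 processed intensity minus the 75th percentile taken. Kept were probes rated above background on 2 or more of the 4 arrays, with 1 probe per gene (highest mean), and 25356 genes were fitted with limma 3.58.1 in R 4.3.3 and Benjamini-Hochberg adjustment. Log2 fold changes are MAX vector minus empty vector. RefSeq (GRCr8 table, symbols old or current) named 10768 of 41012 probes. For the others the probe's own transcript identifier was counted as a gene, so 6316 of the 25356 genes tested had a symbol. Shares over all genes tested include these identifiers, and 1 gene can be counted under more than 1 of them. Sequences and motifs were handled in Python 3.11.15. The fit was tested on simulated data. The alternatives changed background, scaling, filter, probe averaging, variance model, blocks and arrays used.

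The members and lists were chosen with earlier results of these data known. Named were all members, in each list the genes that passed and up to 3 further ones with the largest absolute fold change among those above background on all arrays, the 5 genes most like Adh7 and like Dhrs3, the highest and lowest markers, and Max. Adh4, Adh6, Rdh7, Rdh16, Dhrs9, Aldh1a3, Cyp26a1, Rxra, Ret, Lrat, Rpe65, Stra6, Ttr, Itgam, Aif1, Ddc, Col3a1 and the chromosomal neighbours were named after their values were seen. A gene of the lists that is included in the counts is not reported here by its values. The number of arrays limits the precision.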

Additional observations from a re-analysis of the deposited data

How the results depend on the processing

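The directions of Adh7, Dhrs3, Rdh10 and Aldh1a1 held in all 15 alternatives run, while counts of calls moved. The slide as a block and leaving out MAX vector replicate 1 are the same fit. Changes of filter, probe averaging, variance model or replicate block, and the authors' value table, could not move the fold changes of these members. Over all genes tested 213 were called, against 794 with normexp background correction (on median signals, as the scanner files used here hold no mean signal column), 541 with the array median, 515 with probes above background on all 4 arrays, 955 with a variance trend and 8 with the slide as a block, and 0 to 144 with 1 array left out. The 2 members called became 0 with no filter on dim probes and with the slide as a block, and 0 with any array left out. They were 3, with Aldh1a1 added, under normexp and under the trend. Nothing is read from any of these member counts, since the members were chosen with this contrast known. The 1 other retinoid gene called became 4 with normexp, the array median or the trend, 2 with quantile normalization or probes above background on all arrays, 0 with no filter or the slide as a block, and 0 to 1 with 1 array left out. With no filter, limma called 0 of 36864 genes, with 4033 at an unadjusted p under 0.05. Of the 36 other retinoid genes in that limma fit, 9 had an unadjusted p under 0.05. With normexp, Adh7 was -1.43 and Dhrs3 -1.55. With 1 array left out, Adh7 was -2.05 to -1.80 and Dhrs3 -1.80 to -1.70. The cause was not tested, except that leaving out an array leaves fewer samples. The offset of 50 in the normexp setting also draws log2 differences of dim probes toward 0.

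The deviations of same-numbered arrays correlated at -0.018. That value cannot show whether they share a passage, since MAX vector replicate 1 lay on another slide and the labels do not tie replicates to passages. With the replicate block, Adh7 stayed at -1.92 and Dhrs3 at -1.75, which that block could not move. Limma called 0 genes in all, 0 members and 0 other retinoid genes. Of 25356 genes, 3885 had an unadjusted p under 0.05 in limma, as did 10 of the 23 other retinoid genes.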
